A study of Mus musculus with 9 samples.

Results

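The genes described here are 38 genes of the lysosome and of autophagy, followed in RNA-seq counts of pancreatic islets, small groups of endocrine cells that release insulin, glucagon and other hormones. They were taken by symbol from a list of named genes. The counts table held 56941 Ensembl gene identifiers, all 38 genes were found in it, and all 38 were among the 18548 genes with enough counts to be tested. The islets came from wild-type male C57BL/6J mice that were 15 weeks old when they were given a diet for 9 months. One diet was low in fat (LFD, 10% fat, 3 libraries) and served as the control, one was high in fat (HFD, 60% fat, 2 libraries), and one was ketogenic (KD, 89.9% fat, 4 libraries). The labels did not say whether each library came from a single mouse or a pool, so the p-values below measure the spread between these libraries.

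Lysosomes are acidic compartments in which proteins, glycans and lipids are broken down by hydrolases. In autophagy a double membrane encloses cytoplasm or organelles and then fuses with a lysosome. Beta cells are known to use this route to remove surplus insulin granules and worn organelles. The transcription factors TFEB and TFE3 enter the nucleus when nutrients are scarce and bind an E-box element, written CLEAR, in the promoters of many lysosomal genes.

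The promoter windows are shown first, and that element was present in a minority of the genes. As it is known from promoters of lysosomal genes, its share among these genes is not independent of how they were chosen. RefSeq windows on the GRCm38.p6 assembly, from 250 bases before to 50 after a transcription start, were found for 32 of the 38 genes. Windows were searched on both strands for the E-box CACGTG and for its extended form TCACGTG, which includes the E-box and is the core of the CLEAR element. The extended form was found in 10 of the 32 genes (31.2%), against 1160 of 27025 genes in the whole table (4.29%) and 777 of 12032 tested genes with a window (6.46%). Among further genes of the same pathways, described below, 17 of 88 with a window held it (19.3%). Any E-box was found in 12 of the 32 (37.5%), against 8.09% of the table. The genes with the extended form were the membrane proteins Lamp1 and Mcoln1, the proteases Ctsa and Ctsd, the glycosidases Gaa, Gla and Glb1, the proton pump subunits Atp6v0d1 and Atp6v1a, and the conjugation enzyme Atg7. Ctsl and Atg5 held the E-box alone. Tfeb, Tfe3 and the 4 genes of the Atg8 family that had a window held neither form in these windows.

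Stretches of 30 bases around 1 match in each of 8 genes are printed 5′ to 3′ on the strand of the gene, with the E-box and its extending bases in capitals. How far the sequence outside the capitals was shared was not measured. The Ctsd stretch, on the minus strand at chr7:142387908-142387937, has its match 98 bases before the start, and a further match lies 245 bases before it. The Glb1 match is 48 bases before the start (plus strand, chr9:114401018-114401047), and that of Gaa is 140 bases before it (plus strand, chr11:119267811-119267840). Lamp1 had 4 matches, the most among the 32 genes with a window, of which the one 61 bases before the start is shown (plus strand, chr8:13159088-13159117). The Mcoln1 match shown is 45 bases before the start (plus strand, chr8:3500462-3500491), with another 71 bases before it. The Ctsa match shown is 12 bases before the start (plus strand, chr2:164833749-164833778), with another 5 bases after it. The Atp6v0d1 match is 3 bases before the start (minus strand, chr8:105566050-105566079), and the Gla match shown is 227 bases before it (minus strand, chrX:134601215-134601244), with another 194 bases before it. Each of these stretches starts upstream of the transcript in the RefSeq annotation.
Ctsd: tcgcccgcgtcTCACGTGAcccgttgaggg
Glb1: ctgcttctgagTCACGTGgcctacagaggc
Gaa: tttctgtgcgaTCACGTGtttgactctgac
Lamp1: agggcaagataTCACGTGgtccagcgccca
Mcoln1: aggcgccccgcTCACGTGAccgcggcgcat
Ctsa: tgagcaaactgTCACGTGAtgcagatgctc
Atp6v0d1: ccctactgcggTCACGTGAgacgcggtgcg
Gla: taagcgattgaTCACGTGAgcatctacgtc

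**Figure D1:**
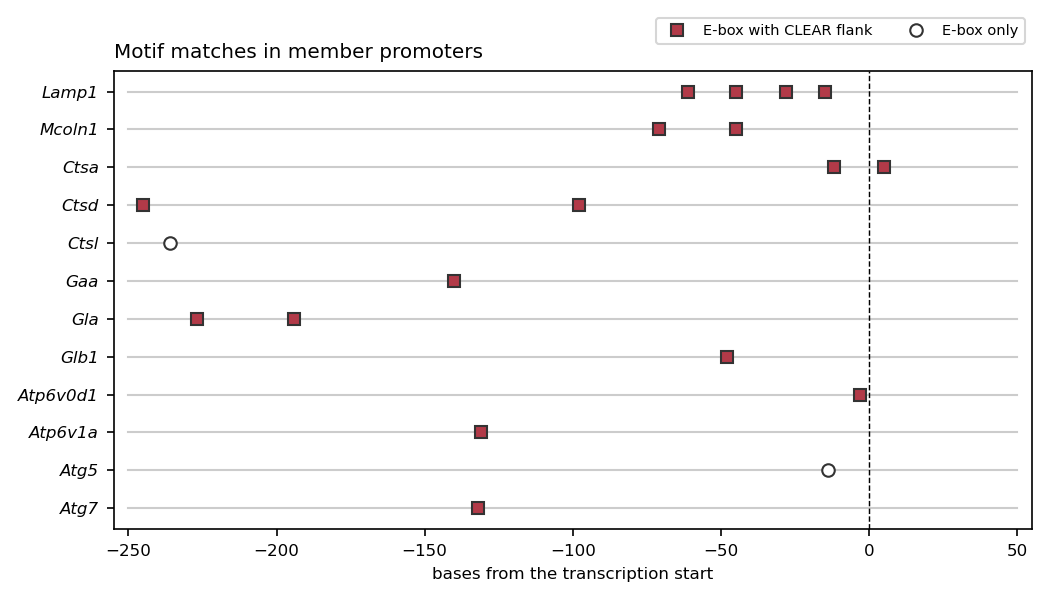
Positions of E-box matches in the promoter windows of the 12 genes that had any, as distance in bases from the transcription start (horizontal axis). Matches of the extended form lie between 245 bases before and 5 bases after the start, and Lamp1 has 4 of them within 61 bases before it.

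The windows were set beside the fold changes as a description only. For KD against LFD the median log2 fold change was 0.28 over the 10 genes with the extended form, 9 of them above 0. It was 0.10 over the 22 genes with a window and no such match, 19 of them above 0, and 0.01 over the 6 genes with no window. For HFD against LFD the medians were 0.19, 0.07 and 0.05 in the same order, so the order was not particular to KD. A match is a stretch of letters and not a measured binding site.

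Total counts were between 15513502 and 26588390 per library. All CPM values below are counts scaled to a common library size by TMM, which assumes that most genes do not differ between libraries. Markers of acinar cells, which make digestive enzymes and surround the islets, took 13.7% to 32.6% of counts on LFD, 10.3% to 17.4% on HFD and 18.7% to 54.9% on KD, with KD replicate 4 the lowest of its diet. All 17 acinar markers were detected on every diet, and all but Amy2a5 had a log2 fold change above 0 for KD against LFD. Amy2a5 was lower, at 2.11 to 12.1 CPM on KD against 14.3 to 51.3 CPM on LFD. Beta cell markers took 5.72% to 9.49%, 11.6% to 12.9% and 1.68% to 12.8% of counts, so the labelled tissue was present in every library. Because the acinar share differed so much, the scaling matters for a level: the 38 genes took 0.282% to 0.339% of all counts on LFD, 0.353% to 0.444% on HFD and 0.164% to 0.366% on KD. After TMM scaling their summed level was 2678 to 2712 CPM, 2884 to 2955 CPM and 2945 to 3132 CPM. The ranges of the scaled sum did not overlap between LFD and KD, with KD higher, whereas the ranges of the unscaled share did. The mean unscaled share was lower on KD (0.241%) than on LFD (0.319%). In that share KD replicates 1 to 3 lay below every LFD library, and KD replicate 4 lay above them all. The TMM factors, which multiply the library size, were 1.053 to 1.255 on LFD and 0.542 to 1.169 on KD. As a mean, the higher level of the 38 genes on KD was therefore seen only after scaling. In bulk samples of this kind, fewer cells of a type and less RNA per cell cannot be told apart.

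On the scaled level per kilobase of the longest transcript, the most abundant of the 38 genes on LFD were Gabarap (117 CPM per kb), an Atg8-family protein, and Lamp1 (108 CPM per kb), a main glycoprotein of the lysosomal membrane. The autophagy receptor Sqstm1 followed at 68.2 CPM per kb, then Lamp2 at 58.4 and the protease Ctsd at 52.6 CPM per kb. The lowest were Gla at 2.55, Atg7 at 3.31, Lipa at 3.35, Tfe3 at 3.44 and Tfeb at 3.77 CPM per kb. On KD Lamp1 (135 CPM per kb) stood above Gabarap (119 CPM per kb), and on HFD Gabarap (137 CPM per kb) stood above Lamp1 (125 CPM per kb).

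The first comparison asks what the ketogenic diet changed against the control diet. Ctsd, the aspartic protease cathepsin D, rose 1.42-fold on KD and was the only 1 of the 38 genes to pass an adjusted p of 0.05. None of the 38 fell. Over all genes tested, 4.12% were called in this comparison, 0.981% as higher and 3.14% as lower. The 1 of 38 was below the share called in either direction and above the share called as higher, and it rests on a single gene. Most of the genes lay slightly higher on KD: 31 of 38 fold changes were above 0, with a median log2 fold change of 0.14, against a median of -0.02 and 8924 of 18548 above 0 over all genes tested. The count above 0 was 24 with a stricter filter on low values (median 0.08), 24 without KD replicate 4, 25 with the replicate number as a block and 26 without LFD replicate 1. At an unadjusted p below 0.05, 12 of the 38 were found, against 22.7% of all genes, with 10 higher and 2 lower, against 10.8% and 11.9%. The KD and LFD libraries did not overlap for 12 of the 38 genes (31.6%), against 19.7% of all genes. Of these 11 were higher on KD and 1 was lower, against 9.69% and 10.1% of all genes.

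**Figure D2:**
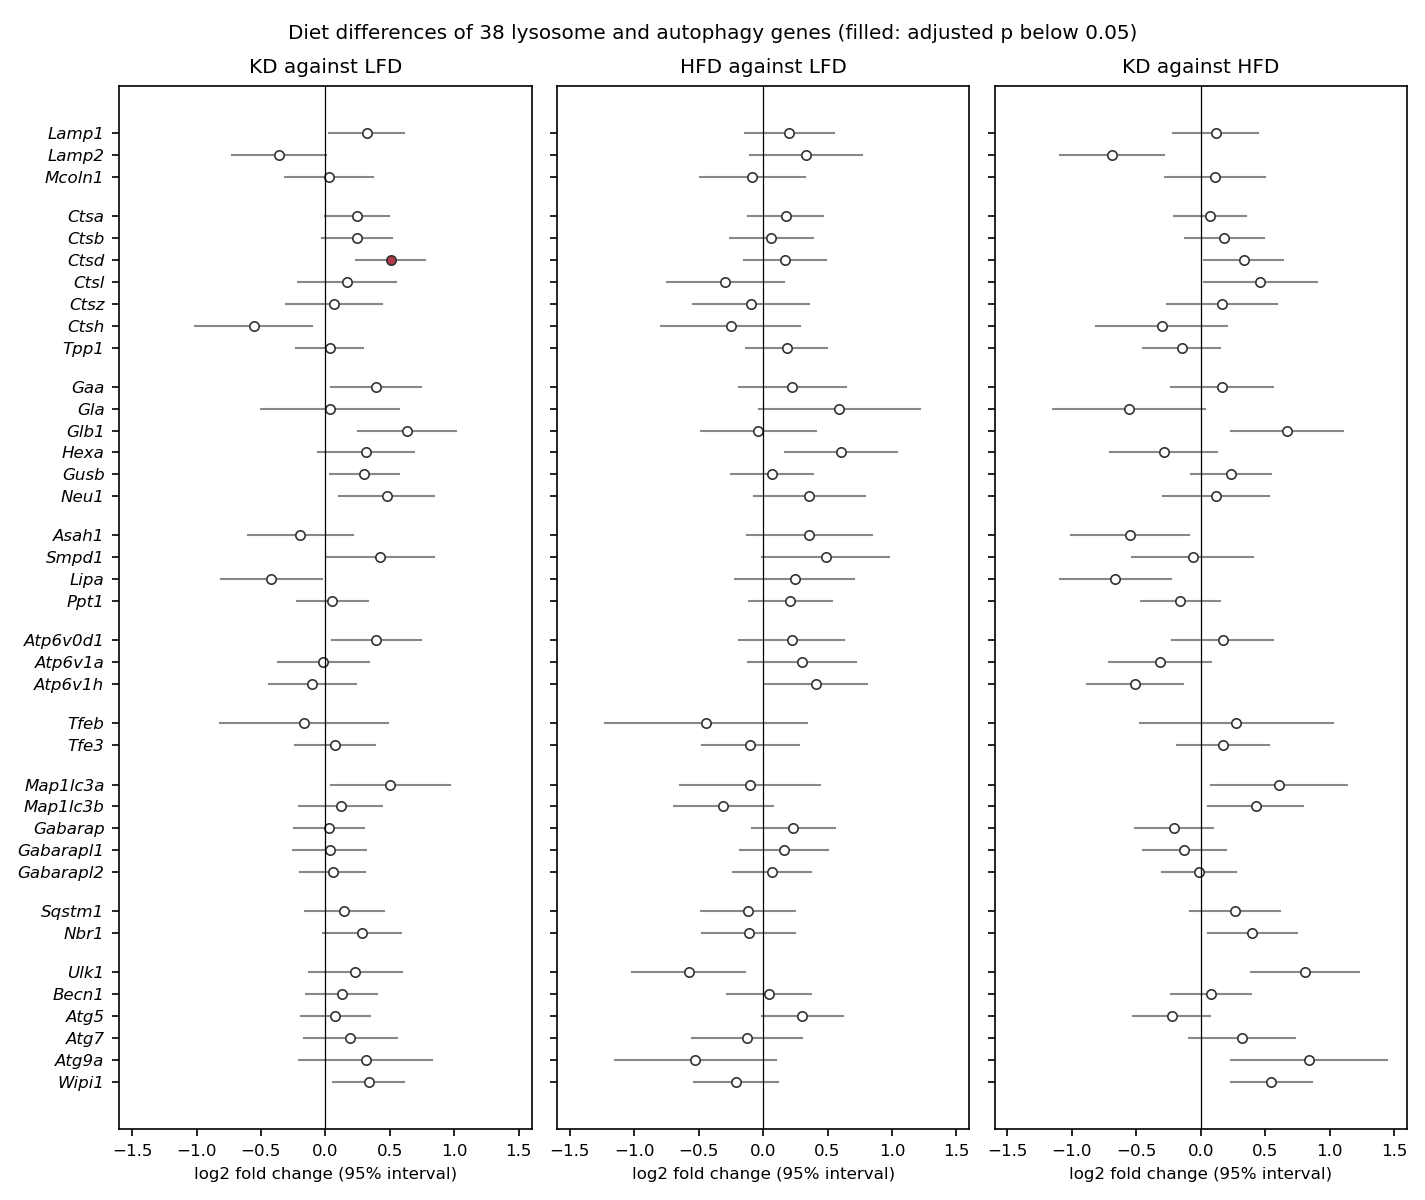
Log2 fold changes of the 38 genes with 95% intervals, by role, for KD against LFD, HFD against LFD and KD against HFD. Filled points have an edgeR adjusted p below 0.05, and the only filled point is Ctsd for KD against LFD.

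Proteases came first among the roles in that Ctsd was the gene called. Ctsd (ENSMUSG00000007891) stood at 110.0, 115 and 111 CPM in LFD replicates 1 to 3, at 121 and 131 CPM on HFD, and at 182, 149.6, 158 and 147 CPM in KD replicates 1 to 4. Every KD library was above every HFD library, and every HFD library above every LFD library. The means were 112 ± 2.63 CPM on LFD (SD, n = 3), 126 ± 7.52 CPM on HFD (SD, n = 2) and 159 ± 15.8 CPM on KD (SD, n = 4). For KD against LFD this gave a log2 fold change of 0.51 with an SE of 0.12 (edgeR adjusted p = 0.0441). The call lay close to the threshold: it held without KD replicate 4 (adjusted p = 0.0335) and was lost without any 1 of the other 8 libraries, with the highest adjusted p of 0.162 without LFD replicate 1, while the log2 fold change stayed between 0.43 and 0.54. With a macrophage score, the mean log2 CPM of macrophage markers, as a covariate the log2 fold change was 0.53 and the edgeR adjusted p was 0.325. The score was 1.32 to 2.38 on KD, below its 2.51 to 3.24 on LFD and 2.74 to 3.21 on HFD. KD did not overlap the other diets in it. Here and below, such a fit therefore cannot tell macrophage content and diet apart.

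Of the other 6 proteases, Ctsh (ENSMUSG00000032359), the aminopeptidase cathepsin H, lay lower on KD. It was at 17.9, 21.2 and 12.3 CPM on LFD, at 16.01 and 12.8 CPM on HFD, and at 14.3, 11.1, 11.3 and 9.95 CPM on KD. KD replicate 1 lay above LFD replicate 3, so the diets overlapped, and the log2 fold change of -0.56 (SE 0.21) did not pass (edgeR adjusted p = 0.141). It passed without LFD replicate 3. Macrophages, which carry many lysosomes, differed between the diets as well: their 10 markers, all detected on every diet, summed to 79.8 to 140.1 CPM on LFD, 96.8 to 129 CPM on HFD and 39.5 to 75.1 CPM on KD. With the macrophage score as a covariate the log2 fold change of Ctsh was -0.37 (edgeR adjusted p = 0.645). The serine carboxypeptidase Ctsa and the cysteine protease Ctsb had no overlap between KD and LFD, both with a log2 fold change of 0.25, and did not pass (edgeR adjusted p = 0.220 and 0.263). Ctsl, Ctsz and Tpp1 had log2 fold changes from 0.03 to 0.17.

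All 6 glycosidases, the enzymes that remove sugars from glycolipids, glycoproteins and glycogen, had fold changes above 0 on KD, with a median of 0.35 on the log2 scale, and none passed the test. Glb1 (ENSMUSG00000045594), lysosomal beta-galactosidase, had the lowest p among them. It was at 27.1, 18.6 and 18.2 CPM on LFD, at 19.5 and 21.998 CPM on HFD, and at 39.2, 30.6, 33.6 and 28.6 CPM on KD. The KD libraries were all above the others, with LFD replicate 1 close to the lowest of them. The means were 21.3 ± 5.03 CPM on LFD (SD, n = 3) and 33.0 ± 4.62 CPM on KD (SD, n = 4). The difference of 0.63 on the log2 scale did not pass (SE 0.17, edgeR adjusted p = 0.0644). It passed in 4 of 18 alternatives, among them without KD replicate 4 (edgeR adjusted p = 0.0425) and with the DESeq2 Wald test (adjusted p = 0.0252). It did not pass without LFD replicate 2 (edgeR adjusted p = 0.164). With the acinar score as a covariate it was 0.44 (edgeR adjusted p = 0.118).

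Neu1 (ENSMUSG00000007038), the sialidase, was at 29.1, 28.3 and 33.3 CPM on LFD, at 36.3 and 41.2 CPM on HFD, and at 33.3, 42.1, 37.8 and 54.7 CPM on KD. The lowest KD library reached only the level of the highest LFD library, and the log2 fold change of 0.47 (SE 0.17) did not pass (edgeR adjusted p = 0.125). Gaa, which degrades glycogen, and Gusb, beta-glucuronidase, had no overlap between KD and LFD and log2 fold changes of 0.39 and 0.30. Hexa was at 0.32 and Gla at 0.03.

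Among the membrane proteins, Lamp1 lay higher on KD and Lamp2 lower, and neither passed the test. Lamp1 (ENSMUSG00000031447) averaged 241 ± 13.4 CPM on LFD (SD, n = 3) and 301 ± 27.8 CPM on KD (SD, n = 4) without overlap, a log2 fold change of 0.32 (edgeR adjusted p = 0.183). Lamp2 (ENSMUSG00000016534), whose isoforms serve fusion of autophagosomes and chaperone-mediated autophagy, was at 214, 188 and 228 CPM on LFD, at 288 and 241 CPM on HFD, and at 133, 166, 149.8 and 207 CPM on KD. It was highest on HFD and lowest on KD, with KD replicate 4 inside the LFD range. Between KD and LFD its log2 fold change of -0.36 with an SE of 0.17 did not pass (edgeR adjusted p = 0.226). The calcium channel Mcoln1 was at 0.03.

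The 4 lipid and thioester hydrolases were split. Lipa (ENSMUSG00000024781), the acid lipase that frees cholesterol and fatty acids from lipoprotein and droplet lipids, was at 11.6, 13.6 and 14.0 CPM on LFD, at 13.9 and 17.1 CPM on HFD, and at 9.88, 10.1, 7.48 and 11.5 CPM on KD. All 4 KD libraries were below all LFD libraries, by a narrow margin. Its log2 fold change of -0.42 (SE 0.18) did not pass (edgeR adjusted p = 0.192), and it was -0.17 with the macrophage score and -0.22 with the acinar score as a covariate. Smpd1, acid sphingomyelinase, had a log2 fold change of 0.42 (edgeR adjusted p = 0.218), the ceramidase Asah1 one of -0.19 and the thioesterase Ppt1 one of 0.05.

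The proton pump subunits, which acidify the lysosome, did not share a direction on KD. Atp6v0d1 had a log2 fold change of 0.39 with no overlap between the diets (edgeR adjusted p = 0.169), Atp6v1a one of -0.02 and Atp6v1h one of -0.10. Tfeb and Tfe3 had log2 fold changes of -0.17 and 0.07, neither passing, and the 95% interval for Tfeb, from -0.82 to 0.48, was wide. Tfeb was at 10.9 and 11.3 CPM in LFD replicates 1 and 2 and at 4.31 CPM in LFD replicate 3, with every HFD and KD library in between.

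**Figure D3:**
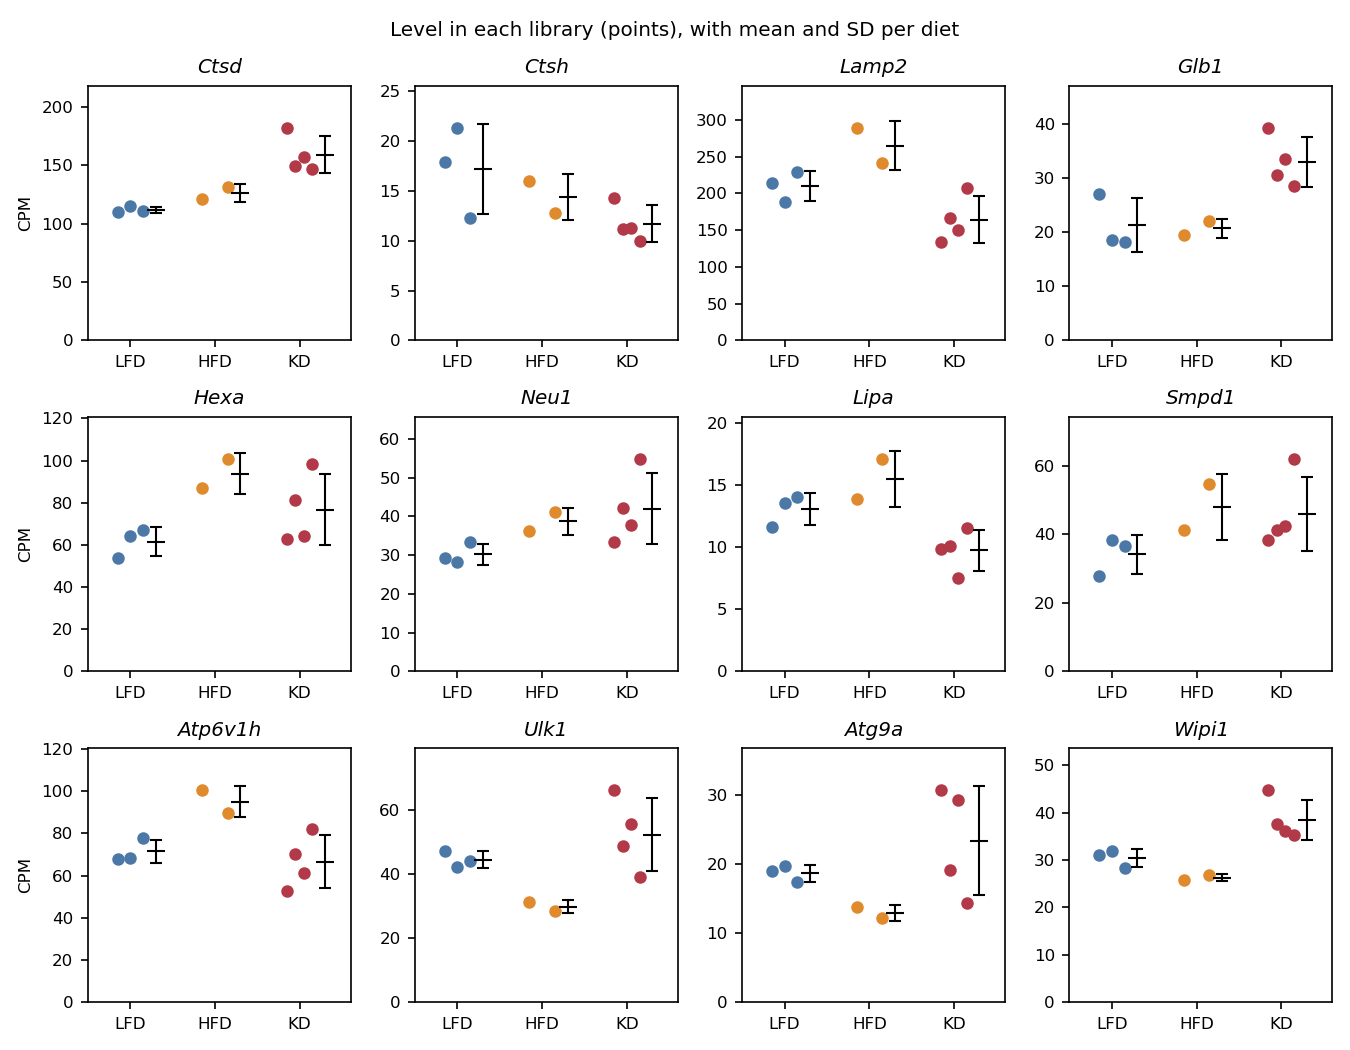
Level in CPM on TMM-scaled library sizes (vertical axis) of 12 genes, by diet, with a point per library and the mean ± SD. Ctsd is higher in every KD library than in every LFD library, Lamp2 and Atp6v1h are highest on HFD, and Ulk1 and Atg9a are lowest on HFD.

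The Atg8 family are small proteins that are linked to the growing autophagosome membrane and recruit cargo receptors. Per kilobase, their order on LFD was Gabarap at 116.6 ± 10.1, Gabarapl1 at 47.4 ± 3.03, Gabarapl2 at 29.9 ± 1.71, Map1lc3b at 21.6 ± 1.76 and Map1lc3a at 14.0 ± 3.26 CPM per kb (SD, n = 3), and no neighbours in that order overlapped. On KD the mean order was the same, but Map1lc3a (15.1 to 22.9 CPM per kb) and Map1lc3b (18.5 to 26.6 CPM per kb) overlapped. None of the 5 passed the test in any comparison.

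Map1lc3a (ENSMUSG00000027602) was at 19.5, 14.7 and 12.4 CPM on LFD, at 11.96 and 16.9 CPM on HFD, and at 25.5, 20.9, 24.9 and 16.8 CPM on KD. Of the family it had the largest difference for KD against LFD, 0.50 on the log2 scale (SE 0.21, edgeR adjusted p = 0.184), and KD replicate 4 lay inside the LFD range. Map1lc3b (ENSMUSG00000031812), whose protein is the usual marker of autophagosomes, was at 96.6, 89.9 and 82.1 CPM on LFD, at 72.4 and 72.3 CPM on HFD, and at 110.2, 92.4, 109.7 and 76.5 CPM on KD. Both HFD libraries were below all others, and the KD and LFD libraries overlapped.

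The 3 Gabarap genes differed less. Gabarap (ENSMUSG00000018567) was at 157, 172 and 144 CPM on LFD, at 192 and 179 CPM on HFD, and at 163, 145, 165 and 169.7 CPM on KD. Gabarapl1 (ENSMUSG00000030161) was at 81.4, 85.3 and 92.3 CPM on LFD, at 94.1 and 99.1 CPM on HFD, and at 83.1, 93.0, 75.2 and 102 CPM on KD. Gabarapl2 (ENSMUSG00000031950) was at 48.2, 48.7 and 53.4 CPM on LFD, at 50.1 and 55.2 CPM on HFD, and at 49.4, 52.3, 48.003 and 58.3 CPM on KD. KD and LFD overlapped for all 3. The 95% intervals of the log2 fold change for KD against LFD were -0.24 to 0.30 for Gabarap, -0.25 to 0.32 for Gabarapl1 and -0.20 to 0.31 for Gabarapl2. These intervals leave room for differences of that size in either direction.

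**Figure D4:**
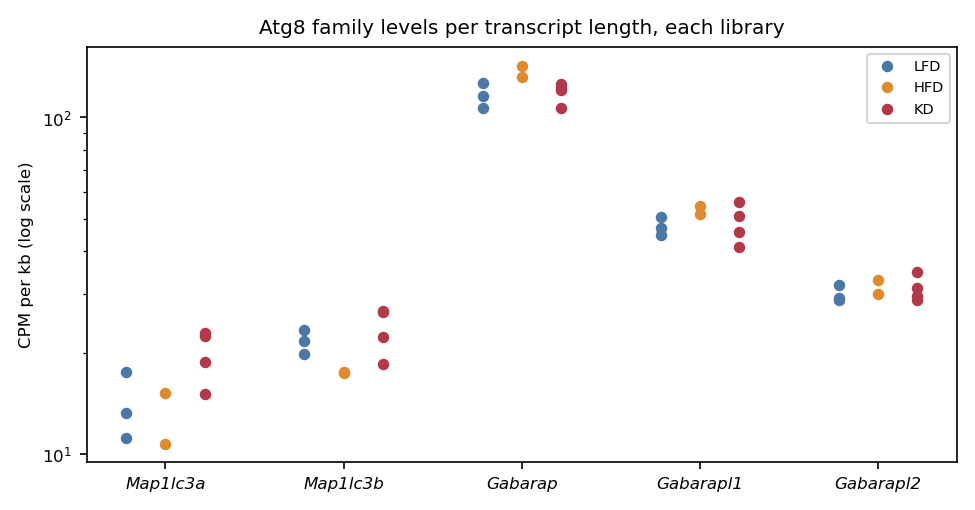
Level per kilobase of the longest transcript (CPM per kb, log axis) of the 5 Atg8-family genes, by diet, with a point per library. Gabarap lies above the other 4 in every library, and Map1lc3a and Map1lc3b come closest to each other on KD.

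Both receptors that tie cargo to the Atg8 proteins had fold changes above 0 on KD without passing the test. Nbr1 averaged 234 ± 5.52 CPM on LFD (SD, n = 3) and 285 ± 35.2 CPM on KD (SD, n = 4) without overlap, a log2 fold change of 0.29, and Sqstm1 had one of 0.15. The 6 genes of initiation, membrane supply and conjugation also all lay above 0, with a median of 0.21. Wipi1 (ENSMUSG00000041895), which binds the lipid that marks the site of autophagosome growth, was at 31.1, 31.8 and 28.4 CPM on LFD, at 25.8 and 26.8 CPM on HFD, and at 44.7, 37.6, 36.2 and 35.2 CPM on KD. The 3 diets did not overlap, with HFD lowest and KD highest. KD against LFD gave a log2 fold change of 0.33 with an SE of 0.12, which did not pass (edgeR adjusted p = 0.143).

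The second comparison sets the high fat diet against the control diet. No gene of the 38 passed, and no gene of all those tested did (percent called 0), with only 2 HFD libraries. The DESeq2 Wald test called 268 genes in all and none of the 38. At an unadjusted p below 0.05, edgeR had 3 of the 38, against 9.99% of all genes. Of these 2 were higher and 1 was lower, against 3.55% and 6.44%. The HFD and LFD libraries did not overlap for 19 of the 38, against 27.5% of all genes. HFD lay above LFD for 14 of these and below it for 5, against 13.4% and 14.1% of all genes. Fold changes were above 0 for 23 of 38, with a median of 0.12 on the log2 scale.

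By role, the medians on the log2 scale were 0.29 for the glycosidases (5 of 6 above 0), 0.30 for the lipid and thioester hydrolases (4 of 4), 0.30 for the proton pump (3 of 3) and 0.06 for the proteases (4 of 7). They were -0.12 for the receptors (0 of 2) and -0.17 for initiation, membrane supply and conjugation (2 of 6), where Atg5, which helps conjugate the Atg8 proteins, stood apart at 0.30 without overlap. Hexa (ENSMUSG00000025232), the alpha subunit of beta-hexosaminidase, which degrades gangliosides, was at 54.0, 64.0 and 66.9 CPM on LFD, at 86.9 and 101 CPM on HFD, and at 62.9, 81.1, 64.4 and 98.6 CPM on KD. Both HFD libraries were above all LFD libraries, while KD spanned both. HFD against LFD gave a log2 fold change of 0.61 with an SE of 0.20, which did not pass (edgeR adjusted p = 0.384).

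Atp6v1h (ENSMUSG00000033793), the regulatory subunit of the pump's cytosolic sector, was at 68.0, 68.4 and 77.9 CPM on LFD, at 100.3 and 89.7 CPM on HFD, and at 52.9, 70.1, 61.0 and 82.1 CPM on KD. The HFD libraries were above all others, and the difference of 0.41 from LFD on the log2 scale did not pass (SE 0.18, edgeR adjusted p = 0.490). Smpd1 (ENSMUSG00000037049) was at 27.7, 38.2 and 36.7 CPM on LFD, at 41.2 and 54.7 CPM on HFD, and at 38.3, 41.1, 42.3 and 61.8 CPM on KD. It lay higher than LFD on both of the other diets, with a log2 fold change of 0.49 on HFD (edgeR adjusted p = 0.503).

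On the lower side stood Ulk1 (ENSMUSG00000029512), the kinase that starts autophagy. It was at 47.3, 42.3 and 44.1 CPM on LFD, at 31.3 and 28.4 CPM on HFD, and at 66.1, 48.6, 55.7 and 39.0 CPM on KD. Both HFD libraries were below all others. Against LFD the log2 fold change of -0.58 on HFD did not pass (SE 0.20, edgeR adjusted p = 0.408). Atg9a (ENSMUSG00000033124), the membrane protein whose vesicles seed the autophagosome, was at 19.01, 19.8 and 17.4 CPM on LFD, at 13.8 and 12.2 CPM on HFD, and at 30.7, 19.2, 29.2 and 14.4 CPM on KD. It too was lowest on HFD, with a log2 fold change of -0.53 (SE 0.29, edgeR adjusted p = 0.557), and its KD libraries ranged from below LFD to well above it. Map1lc3b had a log2 fold change of -0.31 (edgeR adjusted p = 0.574). With the acinar score as a covariate these differences between HFD and LFD were smaller, at -0.19 for Atg9a, -0.12 for Map1lc3b, -0.37 for Ulk1, 0.36 for Hexa, 0.25 for Atp6v1h and 0.21 for Smpd1. Without HFD replicate 2 that of Smpd1 was 0.27.

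The third comparison, KD against HFD, shares its KD and HFD libraries with the other comparisons, so its values are not independent of them. No gene of the 38, and no gene tested, passed (percent called 0). At an unadjusted p below 0.05 there were 13 of the 38, against 22.7% of all genes. Of these 9 were higher on KD and 4 lower, against 12.1% and 10.6%. The libraries did not overlap for 17 of the 38 (44.7%), against 33.9% of all genes, with 11 higher and 6 lower, against 15.7% and 18.2%. Fold changes were above 0 for 23 of 38, with a median of 0.12 on the log2 scale. The DESeq2 Wald test called 4 of the 38 as higher (Atg9a, Glb1, Ulk1 and Wipi1) and 2 as lower (Lamp2 and Lipa), with 1518 of 18548 genes called in all. Without KD replicate 4, edgeR called 5 as higher and 4 as lower, with 1793 of 18225 genes called in all.

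Ulk1 was 0.81 higher on the log2 scale on KD than on HFD (SE 0.19, edgeR adjusted p = 0.124), and Wipi1 was 0.55 higher (SE 0.14, adjusted p = 0.124). Glb1 was 0.67 higher (SE 0.20, edgeR adjusted p = 0.124). On the lower side, the log2 fold change was -0.69 for Lamp2 (SE 0.18, edgeR adjusted p = 0.124), -0.66 for Lipa (SE 0.20, adjusted p = 0.124) and -0.51 for Atp6v1h (SE 0.17, adjusted p = 0.135). For each of these 6 genes the KD and HFD libraries did not overlap. By role, the median log2 fold change was 0.43 for initiation, membrane supply and conjugation, 0.33 for the receptors, -0.32 for the proton pump and -0.35 for the lipid and thioester hydrolases (0 of 4 above 0).

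The acinar share moved with many of these values, and it is given beside them as a score, the mean log2 CPM of the 17 markers, which ran from 11.5 to 13.1 on LFD, 10.8 to 11.8 on HFD and 11.9 to 14.3 on KD. Correlations of each gene's log2 CPM with the score were computed over the 9 libraries, 38 in all, with exact two-sided permutation p-values adjusted by Benjamini-Hochberg over the 38. In 15 genes the adjusted p of Pearson's r was below 0.05, 9 with a positive r and 6 with a negative one, and all 15 kept their sign in the deviations from the diet means. A size of r of at least 0.8 was reached by 13 of 38 genes (34.2%), against 13.9% of all genes tested. The gene levels and the score share the scaling of their library.

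Ctsl, the cysteine protease cathepsin L, followed the score most closely, with Pearson's r = 0.965 (exact permutation p = 6.89e-05, adjusted 0.00262), Spearman's rho = 0.967 (p = 0.000165, adjusted 0.00628) and r = 0.921 without the 2 libraries farthest from the median score, KD replicates 1 and 3. Map1lc3b (r = 0.941, rho = 0.933), Nbr1 (r = 0.926, rho = 0.917), Atg9a (r = 0.924, rho = 0.900) and Ulk1 (r = 0.904, rho = 0.900) ranked next, with exact permutation p-values of r from 0.000270 to 0.000838 and adjusted values of 0.00372, 0.00372, 0.00372 and 0.00531. Without the 2 farthest libraries r was 0.852, 0.818, 0.799 and 0.805 for these 4 genes. In the opposite direction Lipa had r = -0.908 and rho = -0.933 (exact permutation p = 0.000730 for r and 0.000750 for rho, adjusted 0.00531 and 0.00949), and r = -0.887 without those 2 libraries. Atp6v1h (r = -0.866, rho = -0.867) and Lamp2 (r = -0.862, rho = -0.900) followed, with adjusted exact permutation p-values of r of 0.0143 and 0.0153. Ctsd had r = 0.625 and rho = 0.583, which did not pass (adjusted exact permutation p = 0.151 and 0.195), and its r was 0.104 without the 2 farthest libraries.

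In the deviations from the diet means, r with the score was 0.962 for Ctsl, 0.938 for Map1lc3b, 0.879 for Atg9a, 0.870 for Ulk1 and 0.867 for Nbr1. Values of 0.8 or higher were found in these 5 of the 38 genes (13.2%), against 8.60% of all genes. On the negative side r was -0.968 for Hexa, -0.968 for Gabarapl2, -0.950 for Lamp1, -0.946 for Gaa, -0.934 for Neu1 and -0.902 for Smpd1, so that the library with the least acinar RNA in its diet tended to hold most of these transcripts. Values of -0.8 or lower were found in 10 of the 38 genes (26.3%), against 6.72% of all genes. With the score as a covariate in edgeR, KD against LFD gave 7 genes as higher (Atp6v0d1, Ctsd, Gaa, Hexa, Lamp1, Neu1 and Smpd1) and Ctsh as lower, with 1398 of 18548 genes called in all. In that fit the log2 fold change of Ctsd was 0.44 (edgeR adjusted p = 0.0496), that of Ulk1 was -0.04 and that of Atg9a was -0.15. For KD against HFD the same covariate gave log2 fold changes of 0.33 for Ulk1, 0.29 for Glb1, 0.38 for Wipi1, -0.39 for Lamp2, -0.29 for Lipa and -0.17 for Atp6v1h. All 6 were smaller in size than without it, and none of the 38 was called. The acinar score did not overlap between these diets (10.8 to 11.8 on HFD, 11.9 to 14.3 on KD). This fit therefore cannot tell acinar share and diet apart. With the macrophage score as a covariate, none of the 38 and 1 of all genes tested was called for KD against LFD. Without it 764 of all genes were called. As that score did not overlap between KD and LFD, the lost calls cannot be assigned to macrophage content or to diet.

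**Figure D5:**
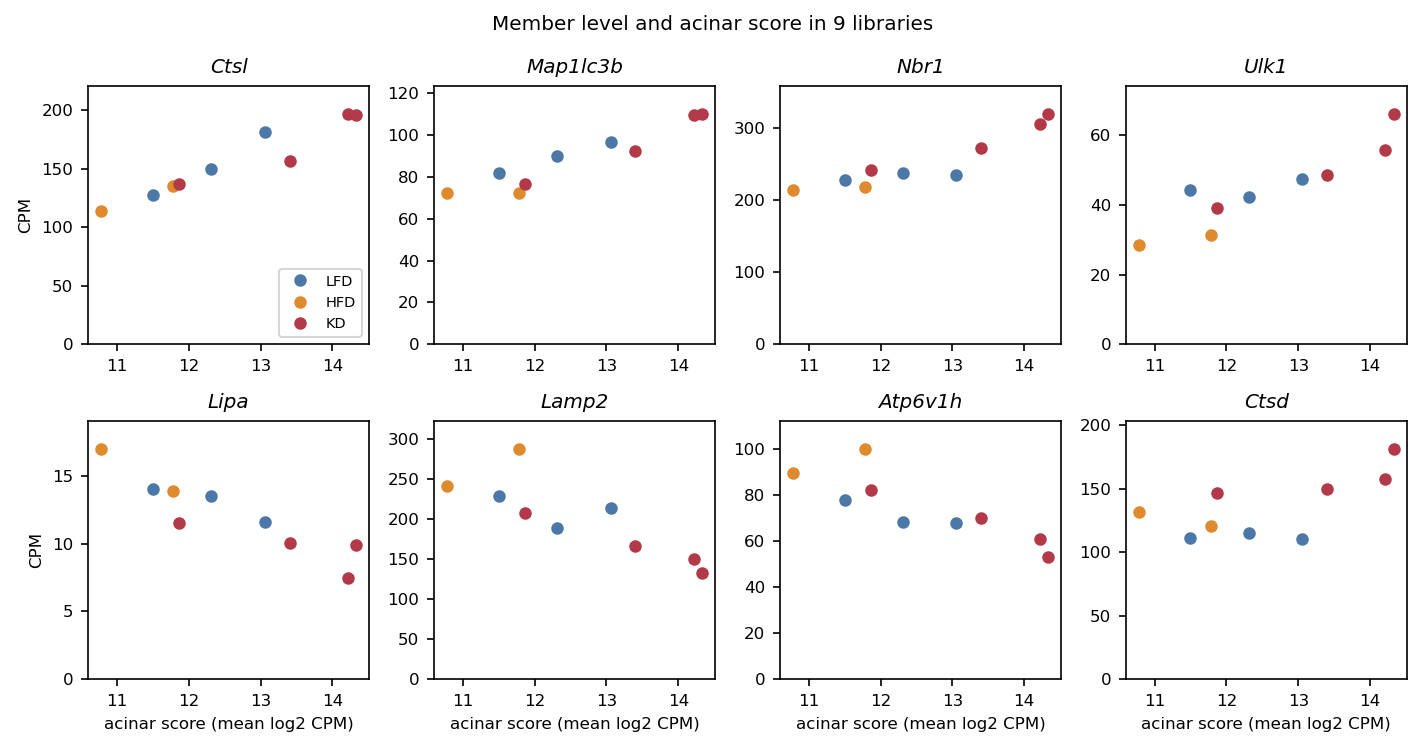
Level in CPM (vertical axis) against the acinar score (mean log2 CPM of 17 markers, horizontal axis) for 8 genes, with a point per library coloured by diet. Ctsl, Map1lc3b, Nbr1 and Ulk1 lie higher where the score is higher, Lipa, Lamp2 and Atp6v1h lie lower, and Ctsd is higher in every KD library than in any other.

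A further 113 genes of the same pathways, from pump subunits and hydrolases to nutrient sensing, conjugation and fusion, were read from the same fit, and all 113 were tested. For KD against LFD, 2 rose and 1 fell, against 0.981% and 3.14% of all genes, or 4.12% in either direction. The median log2 fold change was 0.08, with 70 above 0. None was called for HFD against LFD or for KD against HFD.

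Pink1 (ENSMUSG00000028756), the kinase that marks damaged mitochondria for autophagy, rose on KD. It was at 58.9, 59.8 and 59.8 CPM on LFD, at 62.3 and 57.0 CPM on HFD, and at 113, 88.9, 87.8 and 78.5 CPM on KD, so that LFD and HFD lay together and all KD libraries stood above them. Its rise from LFD to KD was 0.63 on the log2 scale with an SE of 0.14 (edgeR adjusted p = 0.0300). Atg13 (ENSMUSG00000027244), a partner of Ulk1 in the complex that starts autophagy, rose as well. It was at 53.9, 59.0 and 66.4 CPM on LFD, at 56.4 and 65.5 CPM on HFD, and at 85.4, 84.0, 86.6 and 80.1 CPM on KD, with the KD libraries close to one another and above all others. The rise from LFD to KD was 0.49 on the log2 scale with an SE of 0.12 (edgeR adjusted p = 0.0440).

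Ctss (ENSMUSG00000038642), cathepsin S, a protease of antigen-presenting cells, fell on KD. It was at 22.1, 34.0 and 20.9 CPM on LFD, at 22.1 and 29.3 CPM on HFD, and at 8.33, 13.0, 9.26 and 17.7 CPM on KD, all 4 below the rest. KD against LFD gave -1.07 on the log2 scale with an SE of 0.27 (edgeR adjusted p = 0.0488). Macrophage markers were lower on KD too, at the sums given above for Ctsh. The 8 markers of B lymphocytes, which also present antigen, summed to 27.6 to 141 CPM on LFD, 3.60 to 4.86 CPM on HFD and 1.158 to 2.57 CPM on KD. The 6 markers of T lymphocytes summed to 3.80 to 31.4, 1.35 to 1.76 and 0.623 to 1.66 CPM. All of these markers were detected on every diet, Ctss on HFD lay within its LFD range, and the part of lymphocytes in its values was not tested. In a fit with the macrophage score as a covariate the log2 fold change of Ctss was -0.51 (edgeR adjusted p = 0.526). That fit cannot tell macrophage content and diet apart. When 1 library was left out, the calls held in 4 of 9 omissions for Pink1 and in 2 of 9 each for Atg13 and Ctss, with highest adjusted p-values of 0.109, 0.189 and 0.138.

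Most of the further proton pump genes, like Atp6v1h, lay higher on HFD. For HFD against LFD, 13 of 14 were above 0, against 49.8% of all genes tested. In the other role groups of the further genes the share was 35.7% to 76.9%. The median log2 fold change of the 14 was 0.26, and 8 lay higher without overlap, against 13.4% of all genes. Atp6v1h had r = -0.866 with the acinar score, and the relation of these 14 genes to that score was not tested. Atp6v0e, a small subunit of the membrane sector, was at 37.9, 44.0 and 41.3 CPM on LFD, at 62.9 and 61.7 CPM on HFD, and at 26.2, 35.0, 29.6 and 51.0 CPM on KD, a log2 fold change of 0.60 for HFD against LFD that did not pass (edgeR adjusted p = 0.449). The group and Atp6v0e were chosen for mention after their values were seen. For KD against HFD the median of the 14 was -0.24, with 4 above 0.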

How the data were processed

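Per the labels' protocols, polyadenylated RNA of islets was made into strand-specific libraries. The deposited values are raw counts per Ensembl gene, 1 column per library, with cutadapt 1.16, STAR 2.7.9a, featureCounts 1.6.3 and DESeq2 1.40.2 named in the submitters' processing notes, and the GRCm39 build. No gene coordinates on that build were used here. The promoter windows are those of RefSeq on GRCm38.p6, written 1-based. Lengths are of the longest GENCODE M21 transcript.

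Libraries were grouped by the diet in their labels. The labels give no batches, so a batch effect and a diet effect cannot be told apart. Counts were fitted with edgeR 4.0.16 in R 4.3.3 with a mean per diet over all 9 libraries (filterByExpr, TMM, robust glmQLFit, glmQLFTest, two-sided). P-values were adjusted by Benjamini-Hochberg over the 18548 genes tested, with a threshold of 0.05. Standard errors divide the log2 fold change by the root of its F statistic. This procedure was tested on simulated data. DESeq2 1.42.0 was an alternative, with other scalings, filters and covariates, a replicate block and the omission of each library. The depth limits the precision of the lowest genes most.

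The 38 genes, the further and marker lists and the tests were chosen with earlier results of these data known. Values in every library are given for genes with an adjusted p below 0.05, the 3 with the lowest p in each direction of a comparison, and the Atg8 family. For further genes they are given for those called. Outside that rule, Atp6v0e is given in every library, Tfeb in its LFD libraries, and Lamp1 and Nbr1 by their means. Other genes, among them Ctsl, are named by level per kilobase, fold change or correlation with the acinar score.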

Additional observations from a re-analysis of the deposited data

How the results depend on the processing

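Each result was recomputed under 18 alternatives. The median log2 fold changes over the 38 genes stayed above 0 in all of them, but moved by over 1.5 times in some. The moves were smaller than the spread between libraries of a diet (pooled SD of the median 0.116 log2 CPM). That spread is about as large as the medians themselves, so staying within it says little about how stable they are. For KD against LFD the median of 0.14 was 0.080 with the stricter filter and 0.22 with the macrophage score. For HFD against LFD that of 0.12 was 0.053 without HFD replicate 2 and 0.056 with the acinar score. For KD against HFD that of 0.12 was 0.034 without HFD replicate 1, 0.052 without KD replicate 4, 0.048 with the replicate block and 0.23 with the macrophage score. For KD against LFD edgeR called 1 of the 38 and 3 of the 113 further genes, with 764 of 18548 genes called in all. The DESeq2 Wald test called 2 and 7, with 1773 of 18548 in all. A stricter filter (5 CPM or more in 3 or more libraries) gave 0 and 1, with 383 of 11570 in all. With only the 2 diets compared the counts were 0 and 1, with 524 of 16815 in all. They were 8 and 12 with the acinar score as a covariate (1398 of 18548 in all). With the macrophage score they were 0 and 0 (1 of 18548 in all). TMM computed without acinar and hormone genes gave 5 further genes, with 863 of 18548 in all. Leaving out 1 library gave 0 to 2 of the 38 and 0 to 6 of the further genes, both highest without KD replicate 4. Without KD replicate 4, 1348 of 18225 genes were called in all. For KD against HFD, where none was called, the counts were 6 and 9 with the DESeq2 Wald test (1518 of 18548 in all). They were 1 and 1 with no low-count filter (316 of 31086 in all). Leaving out 1 library there gave 0 to 9 of the 38 and 0 to 11 further genes, the highest again without KD replicate 4 and 0 without each of the others. For HFD against LFD none was called under any alternative. With the replicate block, KD against LFD gave 2 of the 38 and 7 further genes, and KD against HFD gave 7 and 10, while 2003 and 2320 of all 18548 genes were called, against 764 and 0 without the block. In deviations from the diet means, libraries with the same replicate number had r of 0.22, -0.016 and -0.0026 over genes between LFD and KD. With HFD, r was 0.069 and 0.075 for LFD, and 0.038 and 0.081 for KD. LFD replicate 3 and KD replicate 4, with unlike numbers, reached 0.24. The deviations of a diet cancel one another, so these values cannot settle whether libraries with the same number were paired. Only KD had a replicate 4, so the block fits that library by a term of its own. KD replicate 4 then adds nothing to the diet comparisons, as when it is left out. The block and that omission are therefore not independent settings. Beyond that, the cause of these shifts was not tested.

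No gene that was called changed sign. Among the genes whose values in every library are given, log2 fold changes that did not pass changed sign as follows. Other genes of the 38 were not followed singly. For KD against LFD, the acinar covariate gave -0.11 for Map1lc3b, 0.080 for Atp6v1h, -0.042 for Ulk1 and -0.15 for Atg9a, and the macrophage covariate gave -0.0077 for Atg9a. The stricter filter gave -0.029 for Gabarap, -0.023 for Gabarapl1 and -0.00060 for Gabarapl2, and the replicate block gave -0.00084, -0.046 and -0.0043. Leaving out 1 library gave -0.032 to 0.092 for Gabarap, -0.042 to 0.10 for Gabarapl1 and -0.0048 to 0.10 for Gabarapl2. For HFD against LFD, the acinar covariate gave 0.15 for Map1lc3a, -0.037 for Gabarapl2 and 0.15 for Glb1, and leaving out 1 library gave -0.37 to 0.12 for Map1lc3a and -0.14 to 0.15 for Glb1. For KD against HFD, the acinar covariate gave 0.16 for Gabarapl1, 0.21 for Gabarapl2, 0.22 for Hexa and 0.51 for Smpd1, and the macrophage covariate gave 0.018, 0.058 and 0.10 for Gabarapl1, Gabarapl2 and Smpd1. Gabarapl2 was at 0.0053 with DESeq2 size factors, 0.0099 with TMM without acinar and hormone genes and 0.0065 with the DESeq2 Wald test, and Neu1 at -0.076 with the replicate block. Leaving out 1 library there gave -0.079 to 0.060 for Gabarapl2, -0.037 to 0.22 for Neu1 and -0.25 to 0.16 for Smpd1.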
